A study of Mus musculus with 14 samples.

Results

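The 1000 autosomal regions with the highest mean accessibility in 4 Basal libraries of mouse hippocampal neuronal nuclei are described here across 14 libraries of 4 groups. They were taken from 186623 autosomal regions, out of 191271 regions in all, being chosen by their mean RPKM (reads per kilobase of region length, corrected for library depth) in Basal. The 7 of them that exceeded 40 RPKM in any library were set apart, and the other 993, which are called the members below, lay at or under 33.7 RPKM in every library. The lowest of the 1000 averaged 4.98 RPKM in Basal and so did the next region outside. Since Basal values chose the regions, every comparison with Basal below is a description and is supported by no test.

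All 14 libraries came from one mouse cross, labelled ArcCreERT2 x R26R-STOP-floxed-eYFP with genotype +/+, in which tamoxifen-activated Cre driven by Arc removes a stop signal and leaves a neuron permanently marked with eYFP. Every group received 4-hydroxytamoxifen 1 h before contextual fear conditioning, a foot shock on day 0. The 3 Reactivated libraries came from mice put back before the fear cue on day 5, with collection days labelled 5, 6 and 7. The 4 Late libraries came from mice collected on day 5 with no recall. Reactivated and Late mice alike spent the 48 h after conditioning in the dark. The 3 Early and the 4 Basal libraries carry the same treatment label (shock on day 0, no recall, collection on day 0), and the labels do not say what separates them. Nuclei were stained for NeuN, a neuronal nuclear protein, for Arc and for GFP, then sorted, from tissue of 10 to 12 pooled mice to reach 10000 nuclei per condition. The age of the mice and which mice a library holds are not given in the sources used here, so each p-value reflects how these libraries vary, and some of that variation may be technical. The sources state 3 replicates, while Basal and Late have 4 libraries each, so whether all 4 are independent is not known here.

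ATAC-seq uses a transposase that inserts sequencing adapters where DNA is not wrapped tightly, so reads pile up at open promoters, enhancers and insulators. In any cell type a small set of regions stays far more open than the rest, and many of these are open in other cell types too. Repeats present in many genomic copies but few assembled ones also collect very high read piles, because the reads of all copies land on the assembled ones. Arc is an immediate early gene of active neurons, and Arc-driven labelling marks the cells, called an engram ensemble, that were active during learning.

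Library totals recovered from the RPKM steps were 46134255 to 56251679 reads, and the Late totals, 46134255 to 47375214 reads, were all below the others, so total depth and the Late group cannot be told apart. Reads inside regions made up 21.3% to 24.0% of the total in Reactivated, 18.4% to 20.02% in Late, 13.8% to 27.8% in Early and 13.2% to 19.3% in Basal libraries. The member in the middle of the list held 281 to 796 reads, depending on the library, which gives a counting error of 3.54% to 5.97% (1 over the square root of the reads). All 1000 regions passed the filter on low values, and none stood at 1 read in any library. No gene names or sequences are attached to the regions, because the reference tables at hand are of another build than the mm9 coordinates.

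The members were more accessible in Reactivated than in Late libraries, by a median of 1.90-fold on the scale of RPKM + 0.5. Their median was 9.50, 8.21 and 9.44 RPKM in the 3 Reactivated libraries, against 4.42, 4.53, 4.63 and 4.49 RPKM in the 4 Late libraries. The groups did not overlap, and the medians averaged 9.05 ± 0.729 RPKM in Reactivated (SD, n = 3) and 4.52 ± 0.0868 RPKM in Late (SD, n = 4). The Early medians were 3.98, 10.9 and 6.65 RPKM, and the Basal medians, which the selection used, were 9.18, 5.08, 4.31 and 6.45 RPKM. Early thus held both the lowest and the highest of the 14 medians, at 7.18 ± 3.49 RPKM (SD, n = 3), and Basal spread around 6.25 ± 2.14 RPKM (SD, n = 4). The Early library with the highest member median, replicate 2, also had the highest share of reads in regions (27.8%), and replicate 1 the lowest of Early for both (13.8%). The part of that share in the members' level was not tested across libraries, and its use as a covariate is given with the comparison below.

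**Figure D1:**
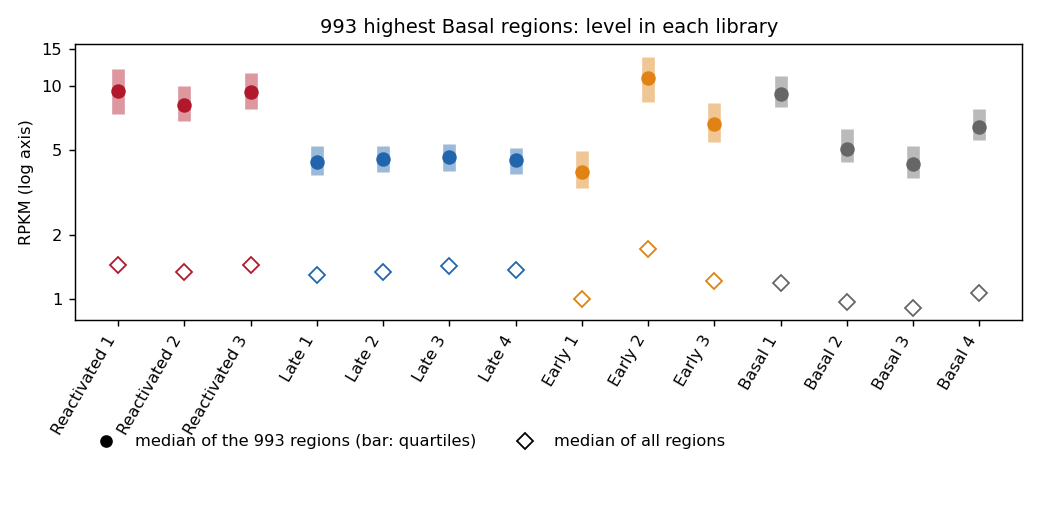
Level of the 993 members in each of the 14 libraries on a log RPKM axis, with filled circles for the median, bars for the quartiles, and open diamonds for the median of all 191271 regions. The 3 Reactivated medians (8.21 to 9.50) lie above all 4 Late medians (4.42 to 4.63), while Early spreads between 3.98 and 10.9.

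Relative to the median of all regions in the same library, the members stood 6.56, 6.10 and 6.53 times higher in Reactivated, against 3.40, 3.37, 3.25 and 3.27 times in Late. The ratio was 3.96, 6.36 and 5.45 in Early and 7.75, 5.22, 4.74 and 6.07 in Basal. Late was the group in which these regions stood out least, with Early replicate 1 the next lowest library. As 0.519% of all regions, the members held 5.54% to 5.66% of the reads in regions in Reactivated, 3.15% to 3.32% in Late, 4.16% to 5.69% in Early and 4.91% to 6.94% in Basal libraries. The Reactivated and Late ranges do not overlap.

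Comparing Reactivated with Late asks what differs after recall of a memory, and neither group entered the ranking by Basal mean. Both counted, as all libraries did, in setting apart the 7 regions above 40 RPKM. The median log2 fold change over the 993 members was 0.93, on log2(RPKM + 0.5), against 0.088 over all 172143 regions tested. It was above 0 for 984 of the 993. In 943 members every Reactivated library lay above every Late library, where 13.5% of all tested regions did so. In 1 member every Reactivated library lay below every Late library, against 5.03% of all tested regions. In limma's fit of all 14 libraries, 4 members were called higher at an adjusted p of 0.05, where 0.0256% of all regions were, and none was called lower, where 0.205% of all regions were. At an unadjusted p of 0.05, 891 were higher and 1 was lower, where 7.59% and 3.75% of all regions were. That fit shares its estimate of spread with Early and Basal, and the median standard error of a member's log2 fold change was 0.33. A fit of the 7 Reactivated and Late libraries alone called 912 members higher, where it called 3.19% of all regions higher, and it called no member lower, where it called 0.709% of all regions lower. When each library's share of reads inside regions entered the fit as a covariate, the median log2 fold change was 0.54. That fit called 299 members higher and none lower, where it called 0.261% and 0.676% of all regions. Under median-of-ratios scaling the median was 0.81, with 553 members called higher and none lower, where 0.691% and 0.440% of all regions were. Under quantile normalization the median was 0.16. Leaving out libraries in turn gave from 0 calls, without Reactivated replicate 2, to 86, without Early replicate 2. Over all regions those fits called 9 higher and 142 lower, and 195 higher and 534 lower. The size of the difference and the number of calls thus depended on how libraries were scaled and on which libraries gave the spread.

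The difference between Reactivated and Late went with the Basal rank. The median log2 fold change was 1.13 over the members in ranks 1 to 200, and 1.01, 0.93, 0.87 and 0.81 over the next 4 sets of 200 ranks. Past the threshold it was 0.72 up to rank 2000, then 0.54 up to rank 5000, 0.37 up to rank 10000, 0.19 up to rank 50000 and 0.040 for the rest. The share of regions with every Reactivated library above every Late library was 91.5% to 98.5% in the 5 bins of members, 88.1% in the regions past them up to rank 2000 and 7.79% beyond rank 50000. There was no step at rank 1000.

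**Figure D2:**
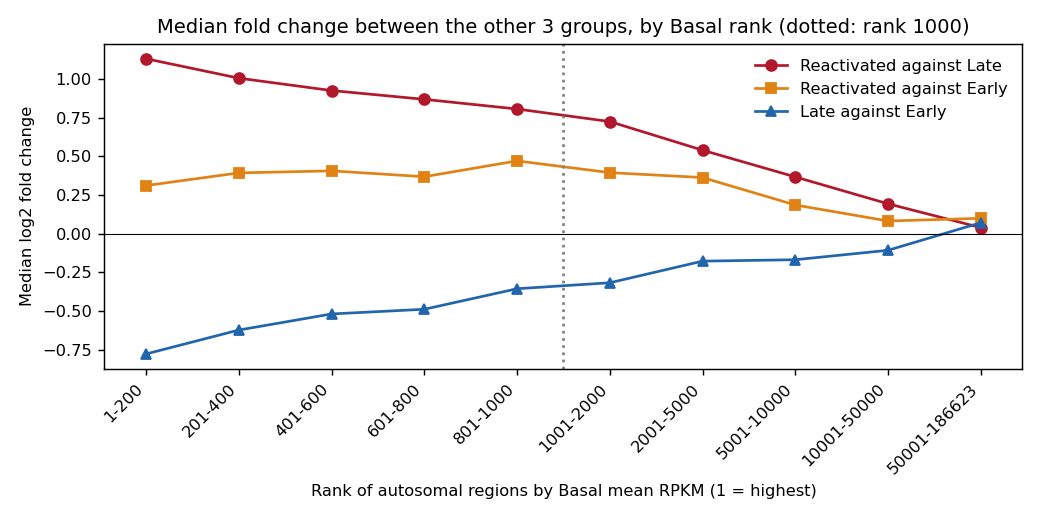
Median log2 fold change of autosomal regions in 10 bins of Basal rank, for Reactivated against Late, Reactivated against Early and Late against Early, with the 7 set-apart regions left out and a dotted line at rank 1000. Reactivated against Late is 1.13 in the highest bin and 0.040 in the lowest, and Late against Early is -0.78 in the highest and 0.071 in the lowest.

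The 4 members called higher in Reactivated than in Late lay on 4 chromosomes. They were 230 to 589 bases long, against a median of 1348 bases over the members and 520 bases over all regions. The region chr3:5860345-5860825 had 17.5, 30.9 and 29.4 RPKM in Reactivated, against 6.10, 6.01, 7.12 and 5.41 RPKM in Late libraries. Its log2 fold change was 1.95 ± 0.31 (SE, adjusted p = 0.00329 in limma's test), the largest of the 993. All 3 Reactivated libraries were above all 4 Late libraries, with replicate 1 the lowest of the 3. The region chr6:103599050-103599280 had 13.5, 9.29 and 6.09 RPKM in Reactivated, against 3.09, 2.64, 3.76 and 3.24 RPKM in Late, a log2 fold change of 1.40 ± 0.30 with an adjusted p of 0.0462 by limma (± is the SE). The region chr5:147072568-147072940 had 20.1, 22.6 and 21.4 RPKM in Reactivated, against 8.51, 6.12, 9.25 and 7.72 RPKM in Late, a log2 fold change of 1.39 ± 0.30 with an adjusted p of 0.0476 by limma (± is the SE). Its 3 Reactivated libraries were close together, unlike those of the chromosome 6 region, which spread over a factor of 2 or more. The region chr19:61275355-61275944 had 15.0, 9.73 and 11.05 RPKM in Reactivated, against 4.75, 4.23, 3.91 and 3.97 RPKM in Late, a log2 fold change of 1.38 ± 0.29 with an adjusted p of 0.0420 by limma (± is the SE). Each of these 4 calls was lost in some alternative fits, from 4 of 25 for the chromosome 3 region to 15 of 25 for the chromosome 5 region.

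Of the 993 members, 9 had a log2 fold change below 0 for Reactivated against Late, and 8 of these 9 were 90 to 342 bases long, with the ninth 2294 bases long. The region chr17:36368206-36368548 was the 1 member with all Reactivated libraries below all Late libraries, at 4.16, 4.69 and 4.85 RPKM in Reactivated against 5.79, 5.20, 6.30 and 5.85 RPKM in Late. Its log2 fold change was -0.31 (adjusted p = 0.672 in limma's test), so it was not called. It is 342 bases long, and it was chosen here after its values were seen.

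Comparing Late with Early sets day 5 without recall beside the day of conditioning. The median log2 fold change over members was -0.54, against 0.025 over all regions tested. Every Late library lay below every Early library in 184 members, where 4.60% of all regions did so, and above in 5, where 5.21% of all regions did so. In limma's fit 1 member was called lower, where 0.103% of all regions were, and none was called higher, where 0.310% of all regions were. At an unadjusted p of 0.05, 284 were lower and 5 were higher, where 5.81% and 6.98% of all regions were. Without Early replicate 1 the median was -0.87, and 5 members were called lower and none higher, where 0.0285% and 0.104% of all regions were. Without Early replicate 2 the median was -0.22, and 10 members were called lower and 2 higher, where 1.34% and 5.00% of all regions were, so that as a share of the members both lay below the background. No member was called without any one of the 4 Late libraries, without Early replicate 3 or without Basal replicate 4. The called member, chr4:20118982-20119116, had 6.59, 6.63, 7.25 and 4.61 RPKM in Late, against 25.3, 15.0 and 20.5 RPKM in Early libraries. Its log2 fold change was -1.60 ± 0.33 (SE, adjusted p = 0.0303 in limma's test), and the call was lost in 11 of 25 alternative fits. All 4 Late libraries were below all 3 Early libraries, and this region did not follow the order of Early libraries seen in most members, since replicate 1 was the highest of its 3.

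Comparing Reactivated with Early sets recall beside the day of conditioning. The median log2 fold change over members was 0.38, against 0.11 over all regions tested. Every Reactivated library lay above every Early library in 55 members and below in 4, where 10.6% and 6.28% of all regions did so. In limma's fit 3 members were called higher, where 0.944% of all regions were, and none lower, where 0.417% of all regions were, and 106 were higher and 3 lower at an unadjusted p of 0.05, where 13.2% and 6.26% of all regions were. As a share of the members, both the calls and the groups without overlap were below the background. The median was 0.055 without Early replicate 1 and 0.72 without Early replicate 2. Without replicate 2, 246 members were called higher and 4 lower, where 14.5% and 2.83% of all regions were. None was called without Early replicate 1 or 3 or without Reactivated replicate 2 or 3.

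The 3 members called higher in Reactivated than in Early were the chromosome 3 region above and 2 regions on chromosome 16. The chromosome 3 region had 17.5, 30.9 and 29.4 RPKM in Reactivated, against 6.34, 8.600 and 8.79 RPKM in Early libraries, a log2 fold change of 1.62 ± 0.33 with an adjusted p of 0.0278 by limma (± is the SE). The region chr16:11143999-11144402 had 3.84, 7.82 and 6.91 RPKM in Reactivated, against 1.78, 1.69 and 2.70 RPKM in Early, a log2 fold change of 1.35 ± 0.29 with an adjusted p of 0.0313 by limma (± is the SE). The region chr16:57391260-57391792 had 11.3, 11.5 and 11.1 RPKM in Reactivated, against 4.61, 3.81 and 4.23 RPKM in Early, a log2 fold change of 1.33 ± 0.28 with an adjusted p of 0.0301 by limma (± is the SE). In Late libraries chr16:11143999-11144402 had 2.46, 2.85, 3.14 and 3.17 RPKM and chr16:57391260-57391792 had 5.42, 4.20, 5.32 and 4.96 RPKM, which overlapped Early in both. The 3 calls were lost in 7 to 9 of 25 alternative fits.

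Against Basal the members' fold changes are described only, since Basal values chose them and all contrasts share the same 4 Basal libraries. The median log2 fold change was 0.51 for Reactivated against Basal, -0.42 for Late against Basal and 0.10 for Early against Basal, beside 0.39, 0.28 and 0.23 over all regions tested. Under median-of-ratios scaling, which takes those shifts of all regions to near 0, the 3 medians were 0.028, -0.78 and -0.21. The rule was also applied to 3 Basal libraries and its list read in the library left out. The level of the regions so chosen had a median of 1.73 times their mean in the 3 used for replicate 1. It was 0.754 times for replicate 2, 0.598 times for replicate 3 and 1.02 times for replicate 4. The median of all regions in the library left out was 1.21, 0.923, 0.848 and 1.04 times that of the 3 used, in that order. The effect of the choice and the level of the library cannot be told apart in these ratios.

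The 7 regions above 40 RPKM fell into groups by their pattern over the 14 libraries. The selection names the one on chromosome 17 as a copy of ribosomal DNA, which encodes ribosomal RNA in many tandem copies, and the block on chromosome 2 as satellite repeat; no annotation of this build was at hand to check either name. The chromosome 17 region, chr17:39979978-39985726, is 5748 bases long and was the highest of all autosomal regions in Basal. It had 100.04, 87.2 and 90.2 RPKM in Reactivated, 14.9, 13.8, 15.6 and 14.1 RPKM in Late, 30.1, 33.6 and 37.7 RPKM in Early and 90.7, 75.8, 89.7 and 86.8 RPKM in Basal libraries. Reactivated and Basal overlapped, Early was lower than both and Late was lowest. Its log2 fold change was 2.62 ± 0.34 (SE, adjusted p = 0.000618 in limma's test) for Reactivated against Late and 1.44 ± 0.37 (SE, adjusted p = 0.0492) for Reactivated against Early. The second of these calls was lost in 16 of 25 alternative fits, and under quantile normalization the Reactivated against Late value turned to -0.55.

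The highest region of the chromosome 2 block, chr2:98506396-98507470, had another order of groups. It had 165, 164 and 92.9 RPKM in Reactivated, 5.41, 4.99, 4.72 and 4.74 RPKM in Late, 39.4, 47.3 and 47.1 RPKM in Early and 41.5, 45.8, 63.0 and 40.7 RPKM in Basal libraries. Here Early overlapped Basal, Reactivated was above both, and Late averaged 0.104 of Basal. Its log2 fold change was 4.64 ± 0.35 (SE, adjusted p = 2.07e-07 in limma's test) for Reactivated against Late, the largest of all regions tested, and -3.04 ± 0.35 (SE, adjusted p = 0.000225) for Late against Early. The region chr2:98502391-98503129 had 74.3, 91.8 and 53.8 RPKM in Reactivated, 6.48, 5.90, 5.41 and 5.94 RPKM in Late, 31.4, 29.3 and 30.6 RPKM in Early and 25.1, 31.5, 42.2 and 27.4 RPKM in Basal libraries. The region chr9:35112799-35113174 had 154, 179.7 and 90.4 RPKM in Reactivated, 7.58, 6.99, 6.47 and 6.36 RPKM in Late, 32.3, 42.8 and 43.1 RPKM in Early and 26.8, 38.2, 49.4 and 28.7 RPKM in Basal libraries. Both repeated that order of groups, with replicate 3 the lowest Reactivated library in each. Their log2 fold changes for Reactivated against Late were 3.49 ± 0.33 (SE, adjusted p = 7.17e-06) and 4.21 ± 0.36 (SE, adjusted p = 1.54e-06 in limma's test).

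The other 3 exceeded 40 RPKM only in a Reactivated or an Early library, so their contrasts helped to set them apart and are given without a test. The region chr11:108872960-108873401 had 41.4, 36.8 and 41.8 RPKM in Reactivated, 9.67, 9.88, 11.9 and 10.1 RPKM in Late, 12.9, 15.2 and 17.8 RPKM in Early and 38.8, 36.2, 39.9 and 38.6 RPKM in Basal libraries. It followed the chromosome 17 region over the 14 libraries (Pearson's r = 0.984 on log2 values, with depth and scaling shared between the regions). The region chr2:98505160-98505368 had 34.7, 61.3 and 33.5 RPKM in Reactivated, 4.14, 3.02, 3.45 and 4.399 RPKM in Late, 17.5, 15.2 and 19.1 RPKM in Early and 13.7, 24.0, 25.0 and 15.9 RPKM in Basal libraries, in the order of its neighbours on chromosome 2. The region chr18:21458167-21459452 had 30.0, 25.3 and 31.4 RPKM in Reactivated, 8.98, 9.87, 9.53 and 9.11 RPKM in Late, 12.1, 44.0 and 24.9 RPKM in Early and 30.0, 14.1, 11.6 and 20.02 RPKM in Basal libraries. Its spread within Early and Basal, with Early replicate 2 and Basal replicate 1 highest, was that of most members and not of the other 6.

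**Figure D3:**
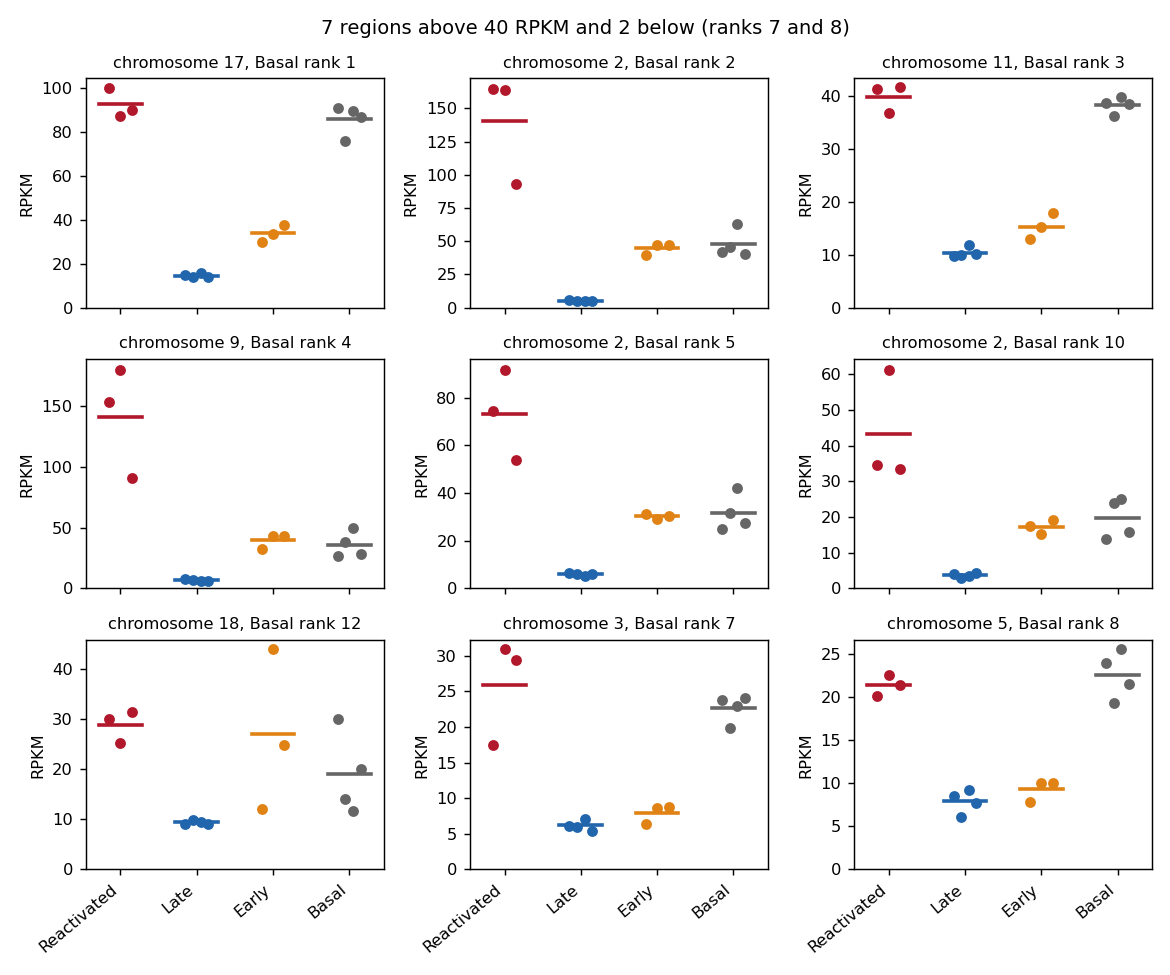
RPKM of the 7 regions set apart above 40 RPKM and of 2 members, Basal ranks 7 and 8, with points for libraries and lines for group means, each panel on its own axis from 0. Late is lowest by mean in every panel. Early is near Late in the chromosome 11, chromosome 3 and chromosome 5 panels and near Basal in the chromosome 2 and chromosome 9 panels.

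Among the 993 members, the 2 most like the chromosome 17 region were chr5:147072568-147072940 (r = 0.946) and chr3:5860345-5860825 (r = 0.941), and the median r over all the rest of the 1000 was 0.563 over the same 14 libraries. In Basal the chromosome 5 region had 24.0, 19.3, 25.7 and 21.5 RPKM and the chromosome 3 region 23.8, 19.8, 23.0 and 24.0 RPKM, and in Early the chromosome 5 region had 7.78, 10.0 and 10.1 RPKM. Early averaged 0.410 of Basal in the chromosome 5 region and 0.349 in the chromosome 3 region, where the median member stood at 1.12. Of the 993 members, 12 averaged under 0.5 of Basal in Early, the lowest being 0.313, and the share of all regions that did so was not counted. Every Early library lay below every Basal library in 3.22% of members and in 3.71% of all tested regions. The member most like the chromosome 2 block was chr6:103599050-103599280 (r = 0.908), one of the 4 called higher in Reactivated than in Late. The likeness used the same 14 libraries as the calls, and both reference regions were themselves higher in Reactivated than in Late. That 3 of the 4 members called for Reactivated against Late were the most like them is therefore no separate support.

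Outside the set-apart regions the highest Basal mean belonged to chr11:3060593-3060699, in a dense run of members at the start of chromosome 11. Joining members less than 50 kb apart, 825 of the 993 stood alone, 43 pairs formed, and 8 clusters held 3 or more. Of these clusters 3 had 5 or more members. The cluster at chr11:3028358-3099976 held 33 members among 33 regions, so every region listed in it was a member. The cluster at chr1:90114745-90203457 held 18 members of 27 regions, and that at chr15:74365778-74443378 held 16 members of 22 regions. Over all 993 the median distance to the nearest other member was 359.8 kb.

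The chromosome 11 cluster ordered the replicates of Basal and Early the other way round from the members outside the 3 large clusters, and the chromosome 1 cluster did so in most of its members. Its median was 17.4, 12.1 and 9.04 RPKM in Reactivated, 8.14, 7.47, 5.11 and 6.38 RPKM in Late, 12.2, 8.69 and 10.6 RPKM in Early and 11.2, 14.1, 18.2 and 12.0 RPKM in Basal libraries. The 926 members outside the 3 large clusters had medians of 9.49, 8.20 and 9.50 RPKM in Reactivated, 4.404, 4.51, 4.64 and 4.47 RPKM in Late, 3.89, 11.1 and 6.62 RPKM in Early and 9.19, 4.99, 4.21 and 6.32 RPKM in Basal libraries. Within Basal, replicate 3 was the highest for 32 of the 33 cluster members, while replicate 1 was the highest for 905 of the 926. Within Early, replicate 1 was the highest for 27 of the 33, while replicate 2 was the highest for 899 of the 926. In the chromosome 1 cluster Basal replicate 3 was the highest for 13 of 18 members and Early replicate 1 for 12 of 18. The ratio of Basal replicate 1 to replicate 3 had a median of 0.585 in the cluster and 2.22 over the 960 members outside it. Replicates of Reactivated also separated in the chromosome 11 cluster, with replicate 1 at about 2 times replicate 3. In 24 of its 33 members every Reactivated library lay above every Late library. This held for 897 of the 926 members outside the 3 large clusters and for 13.5% of all tested regions.

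The median log2 fold change for Reactivated against Late was 0.67 in the chromosome 1 cluster and 0.66 in the chromosome 15 cluster, beside 0.94 over the 926 members outside the clusters. The chromosome 1 cluster had medians of 5.54, 3.50 and 2.97 RPKM in Reactivated, 2.79, 2.86, 1.89 and 2.23 RPKM in Late, 5.54, 3.20 and 5.04 RPKM in Early and 5.17, 6.60, 7.75 and 6.28 RPKM in Basal libraries. Reactivated and Late did not overlap at the median. In 7 of its 18 members every Reactivated library lay above every Late library, against the same 897 of 926 and 13.5%. The chromosome 15 cluster had medians of 7.31, 6.42 and 7.43 RPKM in Reactivated, 4.13, 4.32, 4.49 and 4.68 RPKM in Late, 4.91, 3.71 and 6.15 RPKM in Early and 9.004, 6.71, 7.08 and 7.26 RPKM in Basal libraries. In 12 of its 16 members every Reactivated library lay above every Early library, where 10.6% of all tested regions did so. No member of the 3 clusters was called in any of the 3 comparisons without Basal. Without the chromosome 11 cluster the median log2 fold change of the remaining 960 members was 0.93 for Reactivated against Late, as with it.

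**Figure D4:**
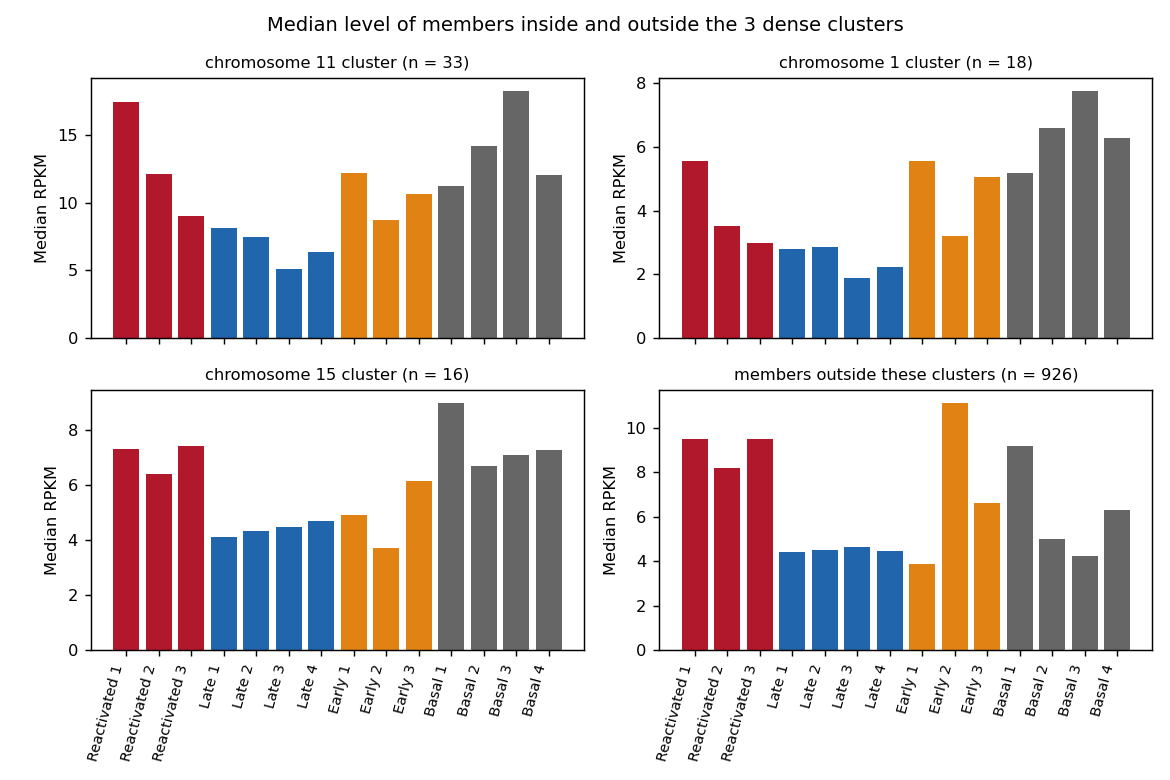
Median RPKM in each library of the members in the chromosome 11, chromosome 1 and chromosome 15 clusters and of the 926 members outside them, each panel on its own axis from 0. Basal replicate 3 is the highest Basal library in the chromosome 11 and chromosome 1 panels, and Basal replicate 1 in the panel of the other members.

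The members were wide, scattered and unevenly shared among chromosomes. The rule used chromosomes only to keep the autosomes, and width only through RPKM, which divides reads by region length. Their median width was 1348 bases, against 520 bases for all regions. At least 1000 bases long were 78.4% of members and 17.3% of all regions, and shorter than 300 bases were 5.64% of members and 22.9% of all regions. The regions past the threshold up to rank 2000 were nearly as wide, with a median of 1251 bases. Of them 69.6% were at least 1000 bases long and 9.8% were shorter than 300 bases. At least 2000 bases long were 11.7% of them and 10.6% of members. Great width was thus shared with the regions next in rank. Since RPKM divides reads by region length, width is a term of the ranking. The borders of a region were set in the authors' peak calling, and how they follow the signal was not tested. Ranking by reads per region instead of RPKM would keep 609 of the 1000. The widest member, chr11:3032000-3036131, is 4131 bases long, and the narrowest, chr13:20213743-20213833, is 90 bases long. The Reactivated against Late median log2 fold change was 0.62 for members under 300 bases and 0.95 for those of 1000 to 2000 bases. The nearest other region of any kind lay a median of 5560 bases from a member, against 3452 bases for all autosomal regions, and within 5000 bases of another region stood 43.7% of members and 63.2% of all autosomal regions.

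By chromosome the members ranged from 4 on chromosome 7 to 129 on chromosome 1, with 107 on chromosome 3. As a share of the regions on the chromosome this was 0.101% for chromosome 7, 0.725% for chromosome 1 and 0.532% over all autosomes. Chromosome 7 also had few regions of any kind, 3968, and 1.95 for each protein-coding gene, against 14.8 on chromosome 1. Over the 19 autosomes, members per Mb went down as protein-coding genes per Mb went up (Spearman's rho = -0.856, given as a description, with the chromosome 11 cluster left out). Regions of any kind also differed in density, with 3968 over 152.5 Mb on chromosome 7 and 8917 over 90.7 Mb on chromosome 18. For the share of a chromosome's regions that were members, rho was -0.849, again without that cluster. Gene counts are RefSeq's for a later build and the length is the end of the last region of the file. The Reactivated against Late median log2 fold change over members lay between 0.78 and 1.01 on every autosome.

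**Figure D5:**
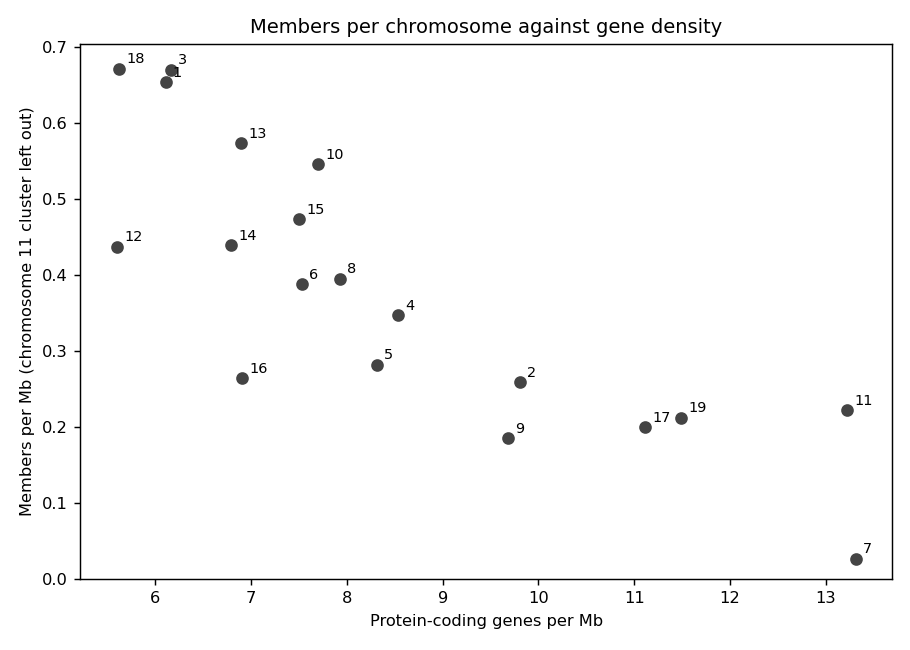
Members per Mb against protein-coding genes per Mb for the 19 autosomes, each point labelled with its chromosome number, with the chromosome 11 cluster left out. Chromosomes 18, 3 and 1 have the most members per Mb at few genes per Mb, and chromosome 7 has the fewest.

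The 4 members on chromosome 7 followed the order of most members, with every Reactivated library above every Late library, Early replicate 2 the highest Early library and Basal replicate 1 the highest Basal library. The highest of them, chr7:75893385-75894686, named here for its chromosome after the values were seen, had 12.4, 8.598 and 9.93 RPKM in Reactivated, 5.36, 4.52, 5.35 and 5.00 RPKM in Late, 4.42, 13.6 and 9.97 RPKM in Early and 13.3, 6.64, 5.08 and 8.04 RPKM in Basal libraries. Early replicate 2 and Basal replicate 1 were close to the highest Reactivated library.

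Over all 14 libraries the coefficient of variation of a member had a median of 40.7%, from 19.9% to 61.5%. The steadiest was chr1:90155572-90156246, with 5.33, 4.84 and 4.54 RPKM in Reactivated, 3.61, 3.76, 3.23 and 2.72 RPKM in Late, 3.97, 3.88 and 4.68 RPKM in Early and 4.76, 5.17, 5.74 and 5.11 RPKM in Basal libraries. Even there all Reactivated libraries were above all Late libraries. The most variable was the chromosome 3 region, followed by chr1:90131631-90132218 at 56.9% and chr6:122258347-122259366 at 56.6%. The chromosome 6 region had 20.6, 16.9 and 20.5 RPKM in Reactivated, 6.81, 6.36, 7.13 and 6.83 RPKM in Late, 6.00, 25.6 and 12.8 RPKM in Early and 15.4, 7.60, 5.06 and 8.86 RPKM in Basal libraries. Reactivated was high and Late low and tight there, and its Early and Basal replicates spread more widely than in the median member outside the chromosome 11 cluster, where Early replicate 2 was 2.90 times replicate 1 and Basal replicate 1 was 2.22 times replicate 3.

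How far the list is particular to Basal can be read from the same rule applied to the other groups. Of the 1000 regions, 732 were among the 1000 highest by Reactivated mean, 573 by Late mean and 699 by Early mean. In all 4 lists stood 504, and in none of the other 3 stood 183. In single libraries these 1000 regions, the 7 set apart included, made up 620 to 746 of the 1000 highest in Reactivated, 498 to 541 in Late, 523 to 708 in Early and 647 to 883 in Basal. Late shared least, and the 33-member cluster on chromosome 11 kept 32 of its members in the list of every group. Leaving out 1 Basal library kept 919 to 965 of the 1000. The 3 lowest regions inside the threshold, chr15:58719863-58721497, chr12:117518957-117520727 and chr6:149048993-149050793, and the 3 highest outside, chr11:45757916-45758724, chr2:139502648-139504807 and chr1:187940564-187941652, averaged 5.34 to 6.85 RPKM in Reactivated and 4.97 to 4.98 RPKM in Basal libraries.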

How the data were processed

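The authors deposited 1 table of RPKM values for 191271 regions in 14 libraries, on mm9 per the submitters' processing notes, which also name Bowtie2 2.0, SAMtools, MACS2, DiffBind and DESeq2 without role or order. Whether duplicates were removed, cut positions shifted or regions called on pooled reads was not given in the sources used here, and these steps set region borders and the reads at high regions. RPKM times width was a whole multiple of 1 step in each library (100% of values within 0.01), which gave the reads and totals quoted. Coordinates are as the table gives them, and no source used here says if starts count from 0 or 1.

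Fold changes came from limma 3.58.1 (R 4.3.3; intensity trend, robust) on log2(RPKM + 0.5), which understates changes of low regions. All 14 libraries entered 1 fit with group means, without the lowest 10% of regions by mean RPKM, two-sided, with Benjamini-Hochberg adjustment over all 172143 regions tested and a threshold of 0.05. The code was checked on simulated data. Median-of-ratios scaling, quantile normalization, other pseudocounts and filters, a replicate block and left-out libraries were the alternatives. Libraries with the same replicate number did not deviate together (19 pairs, correlations of deviations -0.26 to 0.0687), so the numbers were not taken to pair them.

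The members, comparisons and lists were chosen with earlier results of these data known. Regions named were drawn from those set apart, the 6 next highest in Basal, the 3 on either side of the threshold, the called members with the largest changes in each direction (up to 4), and the 3 at each extreme of variation and of width, unless the text says otherwise. Not every region on that list is printed. Sequences and gene names were not used here.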

Additional observations from a re-analysis of the deposited data

Results flagged for a closer look

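In the region chr11:45757916-45758724, the first outside the 1000 by Basal mean, 1 of the 4 Late libraries, replicate 3, lay apart from the other 3: it had 2.87 RPKM, against 3.65, 3.70 and 3.74 RPKM. Its gap to the next library was 0.899 of the range of the group, above the 95% critical value of Dixon's test for 4 samples. Of 86 groups of 4 libraries examined, this was the 1 beyond the limit, and chance alone puts about 1 group in 20 there. The region is no member, and no result above rests on it.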

How the results depend on the processing

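For Reactivated against Late the members' median log2 fold change, 0.93, was 0.81 under median-of-ratios scaling, 0.16 under quantile normalization and 0.54 with each library's share of reads inside regions as a covariate, and 0.91 to 1.00 when libraries were left out in turn. For Late against Early (-0.54) it ran from -0.87 to -0.22 and for Reactivated against Early (0.38) from 0.055 to 0.72 over left-out libraries. For Reactivated against Basal (0.51) it was 0.028 under median-of-ratios scaling, -0.043 under quantile normalization and -0.25 with the covariate, and 0.35 to 0.72 over left-out libraries. For Late against Basal (-0.42) it was -0.78 under median-of-ratios scaling and -0.77 with the covariate, and -0.57 to -0.22 over left-out libraries. For Early against Basal (0.10) it was -0.21, -0.10 and -0.31 under median-of-ratios scaling, quantile normalization and the covariate, and -0.22 to 0.46 over left-out libraries, with -0.050 without Basal replicate 3 and -0.22 without Early replicate 2.

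Reactivated against Late called 4 members in the fit of all groups. It called 2 with a pseudocount of 0.1 (24 and 237), 553 under median-of-ratios scaling (1190 and 757) and 299 with the covariate (449 and 1163), all higher. Under quantile normalization it called 21, of which 18 were higher and 3 lower (98 and 547). A fit of the 2 groups only called 912, all higher (5497 and 1220). It called 16 without trend and robust settings (49 and 311) and 10 with the set-apart regions included (44 and 353), all higher. Late against Early called 1, and then 179 under median-of-ratios scaling, 122 under quantile normalization, 423 with the covariate, 0 with Late averaged, 0 with 2 groups only and 5 with the set-apart regions. Reactivated against Early called 3, and then 37, 45 and 48 under the same first 3 alternatives, 0 with Late averaged, 0 with 2 groups only, 9 without trend and robust settings and 7 with the set-apart regions. With the replicate block the counts were 0 (24 and 215), 0 (248 and 81) and 0 (274 and 204) in that order of comparisons. Leaving out libraries in turn gave 0 to 86, 0 to 12 and 0 to 250 calls among members. The highest of each came without Early replicate 2 (195 and 534, 8613 and 2301, 24896 and 4870). For Reactivated against Late, 84 and 86 were called, all higher, without Early replicate 1 (180 and 450) and replicate 2. The cause of these changes was not tested.

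Under quantile normalization the Reactivated against Late value turned to -0.55 in chr17:39979978-39985726, -0.36 in chr11:108872960-108873401 and -0.33 in chr18:21458167-21459452, and the Late against Early value to 0.77 in the first of these and 1.26 in the second. Reactivated against Early turned to -0.11 in chr2:98506396-98507470 and -0.33 in chr18:21458167-21459452 under quantile normalization, and in the chromosome 18 region to -0.20 without Early replicate 1 (0.71 without replicate 2) and -0.16 with the covariate. Membership was 919 to 965 of 1000 without 1 Basal library and 609 with the rule on reads, and 82 regions passed 20 RPKM, against 7 above 40 RPKM.

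Leaving out the chromosome 11 cluster, an alternative chosen after seeing the data, changed no count of calls without Basal. In each of the 3 comparisons without Basal the count of calls moved by over 1.5 times under some alternative, while the median kept its sign under every alternative run in the 3 comparisons without Basal and in Late against Basal.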
